A study of Mus musculus with 31 samples.

Results

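The kidney concentrates urine through a hormone, 2 receptors and a set of water channels, and 8 genes of that system were followed here across cystic and normal mouse kidneys. The 8 genes were chosen by symbol, out of 23509 genes in the count tables, and all 8 passed the filter on low counts that left 15185 genes for testing. They encode the vasopressin receptors Avpr2 (V2) and Avpr1a (V1a) and the aquaporins Aqp1, Aqp2, Aqp3, Aqp4, Aqp7 and Aqp11. Whole-kidney mRNA was sequenced from 31 mice harvested at 30 weeks of age. Of these, 12 were Pcy/CD1 mice given PBS, 14 were Pcy/CD1 mice given RGLS4326 subcutaneously at 25 mg kg-1 once a month from 5 weeks of age for 25 weeks, and 5 were untreated, age-matched male WT/CD1 mice. The sample labels give weekly dosing for PBS, whereas the treatment text reads as monthly for both Pcy/CD1 groups. The figure legend of the paper also gives weekly PBS, and a monthly schedule for RGLS4326 alone. With weekly PBS, drug and injection schedule cannot be told apart in a comparison of RGLS4326-treated with PBS-treated mice. Pcy is a recessive allele carried in every cell of the animal, so its cysts arise without an engineered deletion. RGLS4326 is a short chemically modified oligonucleotide that binds the microRNA miR-17. The wild-type mice received no injection, so genotype and injection cannot be told apart in a comparison of PBS-treated with wild-type mice.

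Vasopressin reaches the kidney from the pituitary. On principal cells of the collecting duct it binds the V2 receptor, which raises cAMP through Gs and adenylyl cyclase. cAMP then moves Aqp2 water channels into the apical membrane and, over a longer time, raises Aqp2 transcription. Water leaves the cell at the basolateral side through Aqp3 and Aqp4. The V1a receptor couples to Gq and phospholipase C. Aqp1 is the constitutive water channel of the proximal tubule and thin descending limb, Aqp7 is an aquaglyceroporin of the late proximal tubule, and Aqp11 is an intracellular aquaporin of the proximal tubule whose loss gives cystic kidneys in mice. In polycystic kidney disease cAMP drives cyst growth, and V2 receptor antagonists are used to slow it.

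Because the drug acts on miR-17, the mature sequences of that microRNA and 3 relatives are shown first. Each is written 5′ to 3′ from RefSeq on GRCm38.p6, with the seed (bases 2 to 8), the stretch that pairs with target mRNAs, in capitals. The RefSeq table held 7 mature mouse microRNAs with this seed.
mmu-miR-17-5p: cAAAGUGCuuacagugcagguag
mmu-miR-20a-5p: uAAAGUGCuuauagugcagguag
mmu-miR-93-5p: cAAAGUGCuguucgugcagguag
mmu-miR-106b-5p: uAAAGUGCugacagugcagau

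The letters complementary to the seed, GCACTTT, were searched on the transcript strand of the longest annotated 3′UTR of each gene. Among 13832 tested genes with an annotated 3′UTR, 1934 (14%) held them. Of the 8 receptor and aquaporin genes, 1 did, with 1 match. That match lies in the 3′UTR of Aqp1, in exon 4 of 4, at chr6:55347210-55347232 on the plus strand of GRCm38, shown with the seed match in capitals.
Aqp1 3′UTR: ctccaaagGCACTTTgagggaga

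The letters GCACTTT were absent from the longest 3′UTRs of the other members, which ran from 505 bases in Aqp2 to 3955 bases in Aqp4. A match is a description of the sequence, and pairing of the site with miR-17 was not measured.

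Upstream sequence was also read, because Aqp2 is a textbook target of cAMP signalling. The promoter table of RefSeq on GRCm38.p6, covering 250 bases before to 50 bases after each gene's start, held 7 of the 8 genes. The core letters of a cAMP response element (TGACG, or CGTCA on the other strand), which are also part of the full element TGACGTCA, were found in 20.8% of 32851 promoters, the full element in 1.79% and a GATA site (AGATAA, or TTATCT) in 11.2%. The Aqp2 window had 1 core starting 211 bases before the gene's start and 1 GATA site starting 202 bases before it. Both are in capitals in the stretch at chr15:99578833-99578861, plus strand. The Avpr1a window had 1 core starting 165 bases before its start, at chr10:122448322-122448350, plus strand.
Aqp2 promoter: ggaaaacagagaCGTCAatccTTATCTgg
Avpr1a promoter: tactacacctgtTGACGcgctgcatgact

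The Aqp7 windows also held 1 GATA site, starting 132 bases before a start. No core was in the windows of Avpr2, Aqp1, Aqp3, Aqp7 or Aqp11, and none of the 7 genes held the full element. These counts describe letters in a short window and carry no measure of binding.

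The libraries held between 14892524 and 27459962 counts on genes. Expression is given as CPM, a gene's counts scaled to a common library total. Proximal tubule markers, such as the phosphate transporter Slc34a1, were abundant in every library, with a summed level of 10 genes between 7247 and 26605 CPM. One library stood apart from its label. The distance of a mouse from the wild-type mean over all tested genes, as the root mean square difference on the log2 scale, was 0.167 to 0.224 for the 5 wild-type mice, 0.565 to 0.893 for the PBS-treated mice and 0.457 to 0.808 for 13 RGLS4326-treated mice, but 0.281 for RGLS4326 mouse 9. Lcn2, which encodes the injury marker Ngal, read 2.76 CPM in mouse 9 against a median of 354 CPM in its group, and a wild-type median of 3.07 CPM. Counts of wild-type mice 3 and 4 lay nearest each other, with a chi-square of 2.84 per gene against 17.13 for mice 1 and 2, which is above counting noise, and they were kept as 2 mice.

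Relative to wild-type kidneys, PBS-treated Pcy/CD1 kidneys held more mRNA of both receptors and of Aqp2 and Aqp3, and less of Aqp1, Aqp4 and Aqp11. The 4 genes that rose were Aqp2 (4.92-fold), Avpr2 (3.78-fold), Aqp3 (2.28-fold) and Avpr1a (1.86-fold). The 3 that fell were Aqp11 (2.57-fold lower), Aqp4 (1.67-fold lower) and Aqp1 (1.21-fold lower). Aqp7 did not pass the test. Thus 7 of 8 genes passed an adjusted p of 0.05, where 74.3% of all tested genes did (37.7% higher and 36.6% lower), and 6 of 8 also exceeded an absolute log2 fold change of 0.5, where 42.4% of all genes did. The share called is therefore near the background, and the sizes and directions carry the description. The median log2 fold change of the 8 genes was 0.45, against 0.01 over all tested genes.

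With RGLS4326, Avpr2, Aqp2 and Aqp3 were lower than with PBS and Aqp11 was higher, each moving part of the distance back towards the wild-type level. That is 4 of 8 genes called, 1 higher and 3 lower, where 15.8% of tested genes were called (9.15% higher and 6.66% lower). That background was 8.73% with no filter on low counts and 10.1% with only the groups compared fitted, with 4 of the 8 genes called in each. The background also moved with single mice, from 4.08% without PBS mouse 10 to 26.4% without RGLS4326 mouse 2. It fell by more than 1.5 times without PBS mouse 2, 3, 5, 9 or 10 or RGLS4326 mouse 3, 6, 8, 9, 10 or 13 (4.08% to 9.55%), and rose as much without PBS mouse 4 or RGLS4326 mouse 2 (25.5% and 26.4%). Only Aqp2 also exceeded an absolute log2 fold change of 0.5, which 2.15% of all genes did. The median log2 fold change of the 8 genes was -0.16, against -0.004 over all tested genes. Treated kidneys still differed from wild type in 6 of 8 genes, 4 higher and 2 lower, where 64.9% of tested genes differed (32.5% higher and 32.4% lower). All 6 exceeded 0.5, as 31.5% of all genes did. The 3 comparisons share mice, so they are given side by side and not as independent results.

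**Figure D1:**
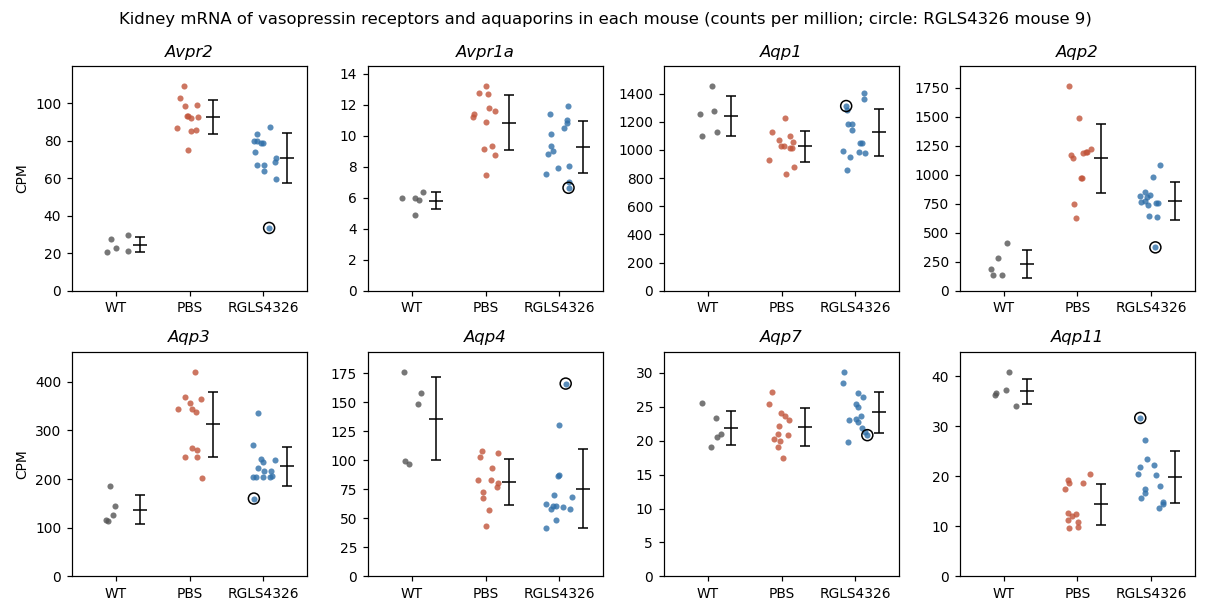
mRNA level of each gene (CPM, linear axis from 0) in 5 wild-type (WT), 12 PBS-treated and 14 RGLS4326-treated mice, 1 point per mouse, with the mean and SD beside each group and a circle around RGLS4326 mouse 9. PBS-treated and wild-type mice do not overlap for Avpr2, Avpr1a, Aqp2, Aqp3 and Aqp11, as for 42.2% of all tested genes, and the circled mouse is the lowest of its group for Avpr2, Avpr1a, Aqp2 and Aqp3 and the highest for Aqp4 and Aqp11.

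**Figure D2:**
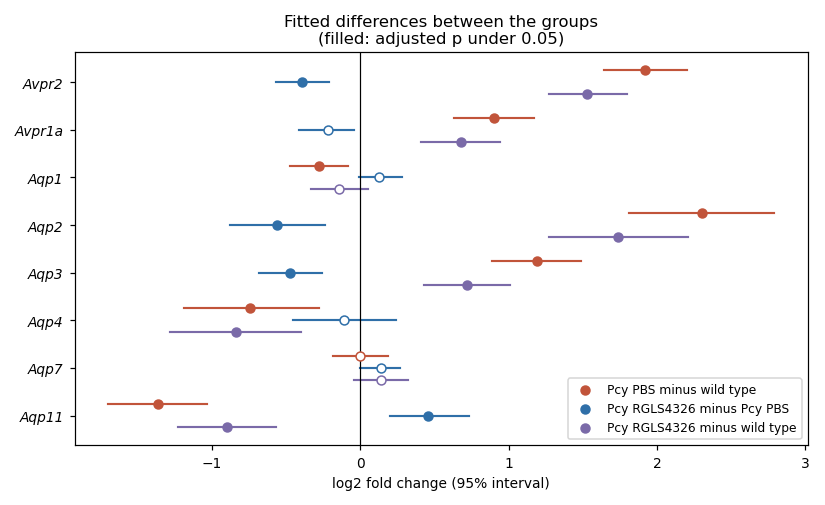
Fitted log2 fold change of each gene in the 3 comparisons, with 95% intervals; filled points have an adjusted p under 0.05. The PBS and RGLS4326 points against wild type lie on the same side of 0 for Avpr2, Avpr1a, Aqp1, Aqp2, Aqp3, Aqp4 and Aqp11. The drug comparison lies on the opposite side of 0 from PBS against wild type for its 4 called genes, Avpr2, Aqp2, Aqp3 and Aqp11.

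The V2 receptor gene Avpr2 lies on chromosome X, from 73892102 to 73895502 on the plus strand of GRCm38. It read 22.9, 29.8, 20.8, 21.4 and 27.5 CPM in wild-type mice 1 to 5. In PBS-treated mice the lowest value was 75, the median 92.7 and the highest 109 CPM, and with RGLS4326 these were 33.5, 72.4 and 87.3 CPM. Every Pcy/CD1 mouse was above every wild-type mouse, and RGLS4326-treated and wild-type mice did not overlap for 3 of the 8 genes, Avpr2, Avpr1a and Aqp11, and for 14.8% of all tested genes. All 14 treated mice were below the PBS median, and 8 of them were below every PBS-treated mouse. The log2 fold change was 1.92 for PBS against wild type (SE 0.14, adjusted p = 3.96e-11), -0.39 for RGLS4326 against PBS (SE 0.092, adjusted p = 0.0125) and 1.53 for RGLS4326 against wild type (SE 0.14, adjusted p = 2.73e-09). Its spread within the PBS group was small, with a coefficient of variation of 9.7%.

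In the GENCODE vM21 annotation, 2347 of the 2886 exon bases of Avpr2 are shared with Arhgap4, a GTPase-activating protein gene on the opposite strand. Counting that ignores strand cannot tell reads of the 2 genes apart, and the strand setting is not given in the sources used here. Arhgap4 read 7.54 ± 1.15 CPM in wild-type, 18.9 ± 2.89 in PBS-treated and 18.9 ± 5.0 CPM in RGLS4326-treated mice (SD, n = 5, 12 and 14). It rose with the disease by a log2 fold change of 1.33 (adjusted p = 2.56e-07), and its log2 fold change with RGLS4326 was 0.00 (adjusted p = 0.998). Whether reads in the shared bases were counted to Avpr2, to Arhgap4 or to neither gene was not tested.

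Avpr1a, the V1a receptor gene, lies on chromosome 10 from 122448499 to 122453452 on the plus strand and was the rarer receptor mRNA. Wild-type mice 1 to 5 read 6.02, 4.87, 5.86, 5.99 and 6.38 CPM. PBS-treated mice ranged from 7.5 to 13.2 CPM with a median of 11.3, and RGLS4326-treated mice from 6.65 to 11.9 CPM with a median of 9.17. No Pcy/CD1 mouse fell within the wild-type range, whereas the treated and PBS groups overlapped widely. Avpr1a rose in PBS-treated mice (log2 fold change 0.90, SE 0.14, adjusted p = 1.21e-06) and remained above wild type with RGLS4326 (0.68, SE 0.13, adjusted p = 8.69e-05). The difference between RGLS4326 and PBS was -0.22 (SE 0.094, 95% interval -0.41 to -0.04) and missed the threshold over all genes (adjusted p = 0.0908). Per kilobase of exon, the ratio of Avpr2 to Avpr1a was 3.95 ± 0.997 in wild-type, 8.15 ± 1.87 in PBS-treated and 7.17 ± 1.56 in RGLS4326-treated mice (SD, n = 5, 12 and 14).

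Aqp2, the vasopressin-regulated apical channel, lies on chromosome 15 from 99579055 to 99584547 on the plus strand. Wild-type mice 1 to 5 read 191, 284, 135, 133 and 414 CPM, a 51.5% coefficient of variation and the widest of the 8 genes in that group. PBS-treated mice ranged from 630 to 1761 CPM with a median of 1179, and RGLS4326-treated mice from 374 to 1084 CPM with a median of 770. All PBS-treated mice were above all wild-type mice, and all 14 treated mice were below the PBS median. Among treated mice, mouse 9 alone, at 374 CPM, was within the wild-type range. The log2 fold change was 2.30 for PBS against wild type (SE 0.25, adjusted p = 1.03e-08), -0.56 for RGLS4326 against PBS (SE 0.16, adjusted p = 0.0265) and 1.74 for RGLS4326 against wild type (SE 0.24, adjusted p = 8.79e-07). The difference between RGLS4326 and PBS missed the threshold without PBS mouse 9 (-0.52, adjusted p = 0.0551) or PBS mouse 10 (-0.49, adjusted p = 0.063).

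Aqp3, the basolateral channel that also passes glycerol, lies on chromosome 4 from 41092722 to 41098183 on the minus strand. It read 144, 127, 115, 114 and 185 CPM in wild-type mice 1 to 5. The PBS group ran from 203 through a median of 340 to 420 CPM, and the RGLS4326 group from 160 through 217 to 335 CPM. The PBS and wild-type groups did not overlap, all 14 treated mice were below the PBS median, and mouse 9 was again the 1 treated mouse inside the wild-type range. Aqp3 rose by 1.19 on the log2 scale in PBS-treated mice (SE 0.15, adjusted p = 9.67e-08), differed by -0.47 between RGLS4326 and PBS (SE 0.11, adjusted p = 0.0105) and stayed above wild type by 0.72 with treatment (SE 0.15, adjusted p = 0.00012).

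Aqp4, the other basolateral channel, went the opposite way to Aqp2 and Aqp3 in the diseased kidneys. Wild-type mice 1 to 5 read 148, 176, 96.6, 99.7 and 158 CPM. PBS-treated mice ranged from 43.2 to 108 CPM with a median of 81.4, and RGLS4326-treated mice from 41.6 to 166 CPM with a median of 61.4. The groups overlapped, with 9 of 12 PBS-treated and 12 of 14 RGLS4326-treated mice below every wild-type mouse. Aqp4 fell in PBS-treated mice (log2 fold change -0.74, SE 0.23, adjusted p = 0.00544) and was lower than wild type with RGLS4326 (-0.84, SE 0.23, adjusted p = 0.0018). RGLS4326 against PBS gave -0.11 (SE 0.18, 95% interval -0.45 to 0.24, adjusted p = 0.68), and -0.25 without mouse 9 (adjusted p = 0.257). The comparisons were also made within sample-index series, sets of mice inferred from where the sample number in the library names starts again, and the difference between series was not tested. RGLS4326 against PBS gave -0.17 in series 1, 0.33 in series 2, which holds mouse 9, and -0.55 in series 3 (unadjusted p = 0.00117), and edgeR called no gene of any kind within a series. Against wild type, in series 1 alone the log2 fold change was -1.17 with PBS (adjusted p = 0.00146) and -1.34 with RGLS4326 (adjusted p = 0.00094), and in series 2 alone -0.39 (adjusted p = 0.526) and -0.06 (adjusted p = 0.939). Per kilobase of exon, the ratio of Aqp3 to Aqp4 was 3.55 ± 0.674 in wild-type, 13.7 ± 3.48 in PBS-treated and 11.8 ± 4.49 in RGLS4326-treated mice (SD, n = 5, 12 and 14).

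**Figure D3:**
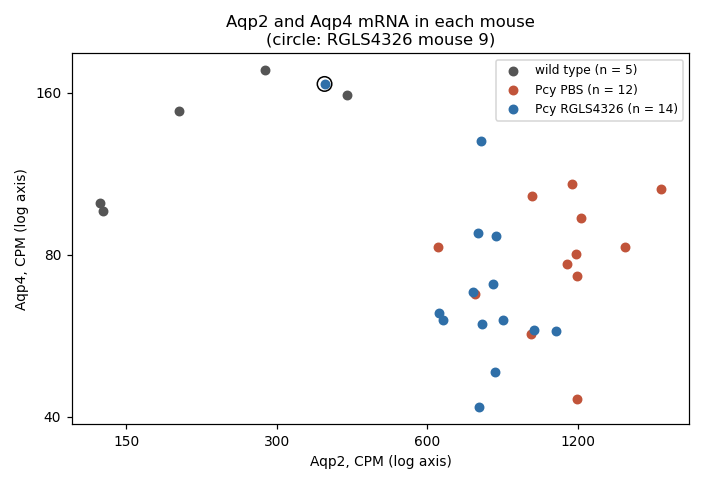
Aqp2 against Aqp4 (CPM, log axes), 1 point per mouse, for 5 wild-type, 12 PBS-treated and 14 RGLS4326-treated mice, with mouse 9 circled. Wild-type mice have Aqp2 between 133 and 414 CPM and Aqp4 between 96.6 and 176 CPM, and the Pcy/CD1 mice other than the circled one sit at higher Aqp2 and mostly lower Aqp4.

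Aqp1, the proximal and thin-limb channel and the 1 gene with a miR-17 seed match in its 3′UTR, lies on chromosome 6 from 55336432 to 55348555 on the plus strand. Wild-type mice 1 to 5 read 1452, 1276, 1127, 1097 and 1257 CPM. PBS-treated mice ranged from 831 to 1228 CPM with a median of 1027, and RGLS4326-treated mice from 861 to 1401 CPM with a median of 1096. All 12 PBS-treated mice were below the wild-type median, although the groups overlapped. The fall in PBS-treated mice was small (log2 fold change -0.28, SE 0.098, adjusted p = 0.0126), and without wild-type mouse 1 it missed the threshold (adjusted p = 0.0721). RGLS4326 against PBS gave 0.13 (SE 0.073, 95% interval -0.01 to 0.28, adjusted p = 0.187) and RGLS4326 against wild type -0.14 (SE 0.096, adjusted p = 0.191).

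Aqp11, whose protein sits in the endoplasmic reticulum, lies on chromosome 7 from 97724006 to 97738289 on the minus strand. Wild-type mice 1 to 5 were tightly grouped at 36.7, 40.9, 37.2, 36.3 and 34 CPM. PBS-treated mice ranged from 9.61 to 20.4 CPM with a median of 12.6, and RGLS4326-treated mice from 13.7 to 31.7 CPM with a median of 19.2. No Pcy/CD1 mouse reached the wild-type range, all 14 treated mice were above the PBS median, and 6 were above every PBS-treated mouse. The log2 fold change was -1.36 for PBS against wild type (SE 0.17, adjusted p = 6.7e-08), 0.46 for RGLS4326 against PBS (SE 0.13, adjusted p = 0.0279) and -0.90 for RGLS4326 against wild type (SE 0.17, adjusted p = 4.09e-05). The rise with RGLS4326 missed the threshold when PBS mouse 2, 3, 5, 9 or 10 was left out, with a log2 fold change of 0.42 to 0.44 and an adjusted p of 0.0511 to 0.0616.

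Aqp7, the glycerol-permeable channel, lies on chromosome 4 from 41033074 to 41048139 on the minus strand. Wild-type mice 1 to 5 read 21.0, 25.5, 20.6, 19.1 and 23.3 CPM, PBS-treated mice from 17.4 to 27.1 CPM with a median of 21.5, and RGLS4326-treated mice from 19.8 to 30.1 CPM with a median of 23.4. The 3 groups overlapped throughout. PBS against wild type gave a log2 fold change of 0.00 (SE 0.093, 95% interval -0.18 to 0.19, adjusted p = 0.968), which bounds a change in either direction well below the changes of Aqp2, Aqp3 and Aqp11. RGLS4326 against PBS gave 0.14 (SE 0.068, adjusted p = 0.14).

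Per kilobase of exon, the order of levels in wild-type kidneys was Aqp1 at 473 ± 53.8, Aqp2 at 163 ± 83.9, Aqp3 at 74.9 ± 16.1, Aqp4 at 21.7 ± 5.69, Avpr2 at 8.49 ± 1.38, Aqp7 at 7.74 ± 0.897, Aqp11 at 3.93 ± 0.265 and Avpr1a at 2.18 ± 0.213 CPM per kilobase (SD, n = 5). Avpr2 and Aqp7 differed by less than their SDs, whereas the other neighbours were farther apart than their SDs. The divisor is all annotated exon bases of a gene over its transcripts, such as 9418 for Aqp11 and 6233 for Aqp4, and the order depends on it. In CPM, Aqp11 at 37.0 was above Avpr2 at 24.5 and Aqp7 at 21.9 in wild-type kidneys. In PBS-treated kidneys Aqp2 came first, at 803 ± 212 CPM per kilobase against 390 ± 41.2 for Aqp1 (SD, n = 12), and Avpr2, at 32.1 ± 3.12, was above Aqp4, at 13 ± 3.18. With RGLS4326, Aqp2 at 545 ± 115 and Aqp1 at 428 ± 64.2 CPM per kilobase (SD, n = 14) were closer together. The ratio of Aqp2 to Aqp1 per kilobase was 0.342 ± 0.169 in wild-type, 2.12 ± 0.757 in PBS-treated and 1.32 ± 0.388 in RGLS4326-treated mice (SD, n = 5, 12 and 14).

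The treatment differences were then examined without mouse 9 and within the 3 sample-index series, which each hold mice of every group. Without mouse 9, RGLS4326 against PBS gave a log2 fold change of -0.33 for Avpr2 (adjusted p = 0.00504), -0.50 for Aqp2 (adjusted p = 0.0395), -0.44 for Aqp3 (adjusted p = 0.0158) and 0.39 for Aqp11 (adjusted p = 0.0497), so the same 4 genes were called, where 8.14% of all tested genes were. Their differences were smallest in index series 1. In series 1, 2 and 3 the log2 fold change was -0.17, -0.45 and -0.51 for Avpr2, -0.14, -0.77 and -0.70 for Aqp2, -0.24, -0.54 and -0.60 for Aqp3, and 0.16, 0.47 and 0.69 for Aqp11. Each series held 4 PBS-treated and 4 or 5 RGLS4326-treated mice. Within a series edgeR called no gene of any kind, so that the 0 of 8 called is no result about the members. At an unadjusted p under 0.05 stood 0, 4 and 6 of the 8, and 1.84%, 19.6% and 21% of all genes tested. Whether the effect differed between the series was not tested. With index series as a covariate the same 4 genes were called, where 14.7% of all genes were. With mouse 9 left out as well, Aqp11 missed the threshold (0.39, adjusted p = 0.057) and 3 of the 8 were called, where 7.95% of all genes were.

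The members also varied together from mouse to mouse. Correlations were computed over the 26 Pcy/CD1 mice on log2(CPM + 1), as deviations from the mean of each treatment group, with p from 100000 permutations of mice within groups and adjustment over the 28 pairs. Of these pairs, 10 had an adjusted p under 0.05, 6 positive and 4 negative, and 9 of the 10 also passed by Spearman's rho. The share over pairs of all tested genes was not computed, so the count is no result particular to these genes. All values come from the same libraries scaled to a common total, so the pairs are not independent. Aqp2 and Aqp3 rose and fell together (Pearson's r = 0.85, permutation p = 1e-05, the smallest that could be given, adjusted p = 0.00014; rho = 0.78, permutation p = 4e-05, adjusted p = 0.00056), with r = 0.79 without the 2 mice farthest from the median. Within groups r was 0.89 with PBS and 0.82 with RGLS4326, and it was 0.79 once index series means were removed.

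Avpr2 varied with Aqp2 (r = 0.75, permutation p = 3e-05, adjusted p = 0.00028; rho = 0.49, permutation p = 0.0111, adjusted p = 0.0366; r = 0.68 without the 2 farthest mice). Aqp1 and Aqp11, the proximal channels, varied together (r = 0.81, permutation p = 1e-05, adjusted p = 0.00014; rho = 0.83, permutation p = 1e-05, adjusted p = 0.00028; r = 0.85 without the 2 farthest mice). Between these sets the sign was negative, as for Aqp2 with Aqp11 (r = -0.63, permutation p = 0.00062, adjusted p = 0.00347; rho = -0.50, permutation p = 0.0118, adjusted p = 0.0366; r = -0.48 without the 2 farthest mice). Aqp3 missed the threshold with Aqp1 (r = -0.31, adjusted permutation p = 0.211) and with Aqp11 (r = -0.36, adjusted permutation p = 0.167). The 7 pairs of Avpr1a with another member and the 7 pairs of Aqp4 each missed the threshold. With index series means removed, r of Avpr1a with Avpr2, Aqp2 and Aqp3 was 0.54, 0.47 and 0.40, instead of 0.31, 0.03 and -0.04. These pairs still missed the threshold (adjusted permutation p = 0.147, 0.16 and 0.143). The count was 8 of 28 with index series means removed and 11 of 28 without mouse 9.

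**Figure D4:**
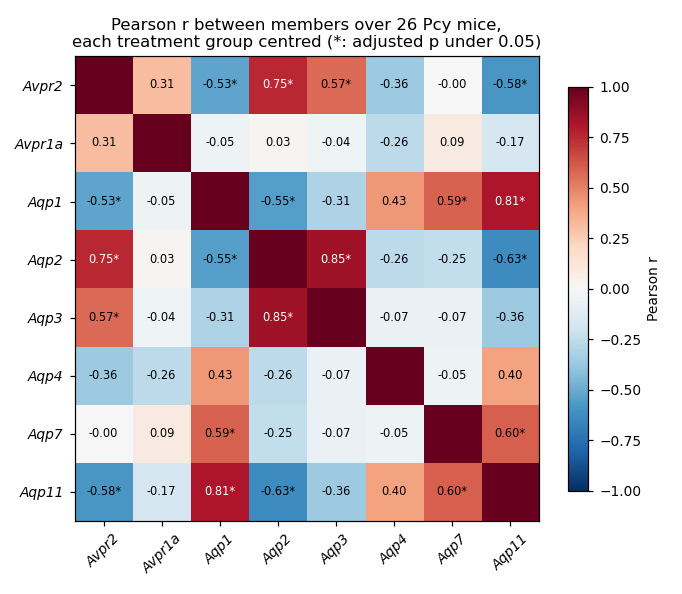
Pearson's r between each pair of genes over 26 Pcy/CD1 mice on log2(CPM + 1), each treatment group centred on its mean; asterisks mark an adjusted p under 0.05 over 28 pairs. Avpr2, Aqp2 and Aqp3 form a positive set (0.57 to 0.85), Aqp1, Aqp7 and Aqp11 another (0.59 to 0.81), and no Aqp4 or Avpr1a pair is marked.

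The genes whose mouse-to-mouse deviations were most like each member were sought over all 31 mice among 11515 genes averaging 5 CPM or more. For Avpr2 they were Fxyd4 (r = 0.90), which encodes a regulator of the sodium pump in collecting duct, Scnn1g (r = 0.87), a subunit of the epithelial sodium channel, and Efemp1 (r = 0.86), a matrix protein. The ranking includes RGLS4326 mouse 9, without which the Avpr2 values were 0.80, 0.72 and 0.77. Genes close to Aqp2 included Dab1 (r = 0.88) and B3gnt7 (r = 0.88), and genes close to Aqp3 included Mcoln3 (r = 0.82) and Fam129a (r = 0.78). Aqp11 was closest to Sord (r = 0.97), which encodes sorbitol dehydrogenase, to the proximal phosphate transporter Slc34a1 (r = 0.96) and to Apeh (r = 0.95). Aqp1 was closest to Acss2, Evc and Slc3a1 (each r = 0.86) and Aqp7 to Dnase1 (r = 0.82), Napsa (r = 0.82) and Smim8 (r = 0.80). For Aqp4 the closest were Cab39l (r = 0.80), Bnip3l (r = 0.79) and Pcdh7 (r = 0.78), with 0.72, 0.75 and 0.69 without mouse 9. Avpr1a was closest to the circadian clock gene Arntl (r = 0.74), the lactate transporter gene Slc16a1 (r = 0.72) and Tab2 (r = 0.70). Without mouse 9 these were 0.69, 0.68 and 0.64. These are descriptions over the same libraries, without a test.

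Markers of principal cells and of the proximal tubule moved as well. The counts of this and the following lists are read beside the shares of all tested genes called, 74.3% for PBS against wild type, 15.8% for RGLS4326 against PBS (8.14% without mouse 9) and 64.9% for RGLS4326 against wild type. For RGLS4326 against PBS, 36.8% of tested genes had an unadjusted p under 0.05 by edgeR, and DESeq2 called 16.2% of 19698 genes. In bulk tissue, fewer cells of a type and less RNA per cell cannot be told apart. All 8 principal cell markers outside the members rose in PBS-treated mice, with a median log2 fold change of 1.31, 5 fell with RGLS4326 (4 without mouse 9), and all 8 remained above wild type. Among them Hsd11b2, which protects the mineralocorticoid receptor from cortisol-type steroids, rose by 1.55 (adjusted p = 2.56e-09) and fell by 0.32 with RGLS4326 (adjusted p = 0.0352). Fxyd4 rose by 1.91 (adjusted p = 8.33e-09), and its log2 fold change with RGLS4326 was -0.36 (adjusted p = 0.0589). The summed level of the list was 417 to 468 CPM in wild-type, 877 to 1325 in PBS-treated and 436 to 1007 CPM in RGLS4326-treated mice, and 436 CPM in mouse 9. The part of principal cell abundance in the Avpr2, Aqp2 and Aqp3 values was not tested.

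Of 10 proximal tubule markers, 9 fell in PBS-treated mice, with a median log2 fold change of -1.23 beside -1.36 for Aqp11, -0.28 for Aqp1 and 0.00 for Aqp7. With RGLS4326, 2 of the 10 rose, the organic anion transporter gene Slc22a6 (0.35, adjusted p = 0.0272) and the endocytic receptor gene Cubn (0.38, adjusted p = 0.0421), and 9 remained below wild type. Miox, which starts inositol breakdown, fell by 1.74 in PBS-treated mice (adjusted p = 5.78e-07), with 0.55 for RGLS4326 against PBS (adjusted p = 0.0554). The count of 2 depended on the test, since DESeq2 called 8 of the 10 higher with RGLS4326, and edgeR without mouse 9 called 1. The summed level was 23385 to 26605 CPM in wild-type, 7247 to 14218 in PBS-treated and 9837 to 23584 CPM in RGLS4326-treated mice, with mouse 9 at 23584 CPM. The part of proximal tubule abundance in the Aqp11 and Aqp1 values was not tested.

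Genes that carry the receptor signal moved in both directions. Of 12 genes from the V2 receptor to cAMP and its breakdown, 5 rose and 7 fell in PBS-treated mice, with a median log2 fold change of -0.15. Arrb2, the arrestin that switches receptors off, rose by 1.61 (adjusted p = 4.09e-08), Adcy6, an adenylyl cyclase of the collecting duct, rose by 0.35 (adjusted p = 8.47e-08), and Prkacb, a catalytic subunit of protein kinase A, fell by 0.33 on the log2 scale (adjusted p = 3.43e-07). With RGLS4326, Gnas, which encodes the Gs alpha subunit, rose by 0.10 (adjusted p = 0.0288), Adcy6 fell by 0.13 (adjusted p = 0.0174), and the other 10 did not pass. Against wild type, treated mice had 4 of the 12 higher and 4 lower. Of 8 genes of V1a signalling, 1 rose and 5 fell in PBS-treated mice, and the same counts held for RGLS4326 against wild type. Of all tested genes, 37.7% rose and 36.6% fell in the first comparison, and 32.5% and 32.4% in the second. The phospholipase gene Plcb1 fell by 1.35 (adjusted p = 2.13e-07) and the calcium release channel gene Itpr1 by 0.70 (adjusted p = 4.67e-06), while Itpr3 rose by 1.38 (adjusted p = 2.22e-07). With RGLS4326, edgeR called 0 of the 8, with 2 at an unadjusted p under 0.05 (36.8% of all genes), and DESeq2 called 1 (16.2% of all genes).

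Transcription factors linked to Aqp2 or to the principal cell rose as well. In PBS-treated mice 7 of 8 rose, with a median log2 fold change of 1.02, and 4 fell with RGLS4326 (3 without mouse 9), while 7 remained above wild type. Gata3 and Elf5 of this list are also on the principal cell list. Gata2 rose by 0.99 (adjusted p = 6.74e-09), Gata3 by 1.37 (adjusted p = 4.18e-08) and Grhl2 by 1.06 (adjusted p = 1.99e-07). With RGLS4326 they fell by 0.30 (adjusted p = 0.012), 0.33 (adjusted p = 0.0421) and 0.39 (adjusted p = 0.0171). The eighth factor, Tfcp2l1, gave 0.04 in PBS-treated mice (adjusted p = 0.548).

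Of 8 genes for vasopressin-regulated salt and urea transport, 5 rose and 2 fell in PBS-treated mice, 3 fell with RGLS4326 (2 without mouse 9), and 5 were above and 1 below wild type after treatment. Scnn1b and Scnn1g, which are also on the principal cell list, rose by 1.20 (adjusted p = 1.12e-08) and 1.26 (adjusted p = 3.55e-09) and fell by 0.41 (adjusted p = 0.00989) and 0.33 (adjusted p = 0.0191) with treatment. The urea transporter gene Slc14a1 rose by 1.81 (adjusted p = 1.03e-08) and fell by 0.38 with treatment (adjusted p = 0.04). The other urea transporter gene of the list, Slc14a2, rose by 0.82 (adjusted p = 0.00421), and its log2 fold change with RGLS4326 was -0.13 (adjusted p = 0.618). The 2 that fell with the disease were the loop and distal salt transporters, Slc12a1 by 0.53 (adjusted p = 0.00261) and Slc12a3 by 0.68 (adjusted p = 6.64e-06).

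Of 7 genes that respond to tonicity, which is high in a concentrating medulla, 2 rose and 3 fell in PBS-treated mice. The taurine transporter gene Slc6a6 fell by 0.46 (adjusted p = 1.38e-05) and the chaperone gene Hspa4l by 0.66 (adjusted p = 2.64e-06), and Gdpd5, an enzyme of osmolyte breakdown, rose by 1.29 (adjusted p = 5.68e-07). With RGLS4326, Gdpd5 was the 1 gene that passed and fell by 0.38 (adjusted p = 0.0421), none passed without mouse 9, and against wild type 2 were higher and 2 lower.

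Of 9 remaining aquaporin, vasopressin and oxytocin receptor genes, 5 passed the filter on low counts. The lens channel gene Mip and Aqp12 had 0 counts in all 31 mice. Aqp8 rose in PBS-treated mice by 1.68 at a low level (0.717 CPM in wild-type and 2.31 CPM in PBS-treated mice on average, adjusted p = 2.66e-05). Aqp9 gave 1.32 (adjusted p = 0.059) and Oxtr 0.64 (adjusted p = 0.0563). The intercalated cell channel gene Aqp6 read 61.0 CPM in wild-type, 62.5 in PBS-treated and 53.4 CPM in RGLS4326-treated mice on average and fell by 0.23 with RGLS4326 (adjusted p = 0.0418). Against wild type, Aqp8 and Aqp9 were higher in treated mice.

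**Figure D5:**
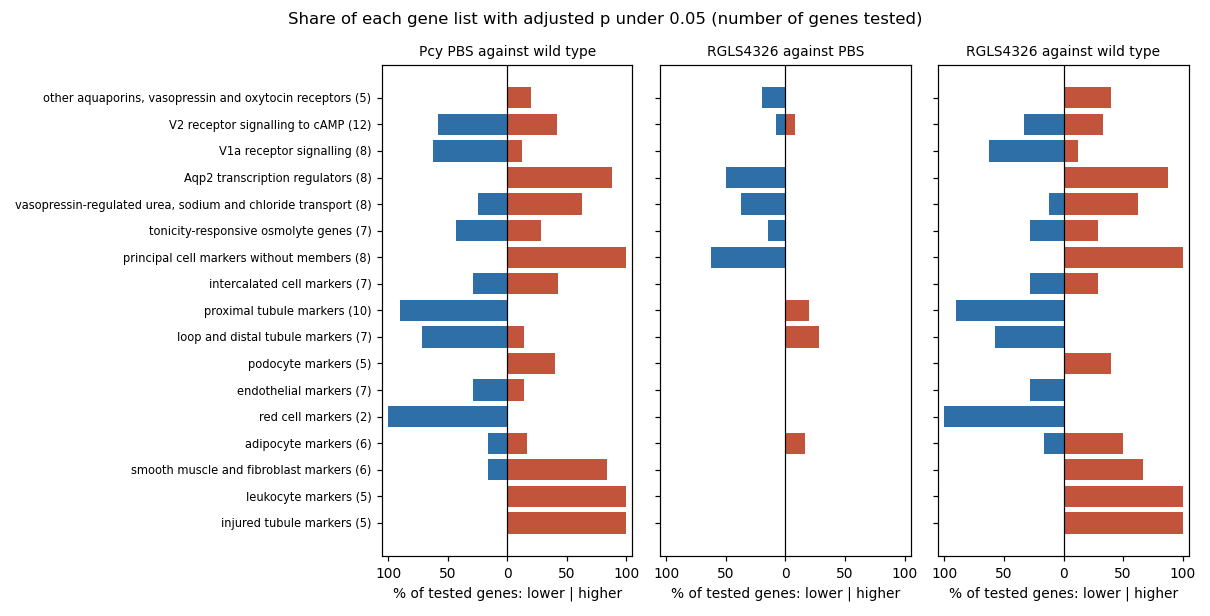
Share of the tested genes of each list (number in brackets) that passed an adjusted p of 0.05, higher to the right and lower to the left, in the 3 comparisons. Principal cell markers reach 8 of 8 higher in PBS-treated mice and 5 of 8 lower with RGLS4326, and proximal tubule markers 9 of 10 lower and 2 of 10 higher.

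The injury genes Lcn2 and Havcr1 were followed beside the members. Lcn2 read 5.67 ± 5.04, 583 ± 336 and 333 ± 193 CPM in wild-type, PBS-treated and RGLS4326-treated mice (SD, n = 5, 12 and 14), and its log2 fold change with RGLS4326 was -0.81 (SE 0.41, adjusted p = 0.148). Havcr1, which encodes Kim-1, read 13.5 ± 7.0, 48.6 ± 11.7 and 53.0 ± 25.6 CPM, with 0.13 for RGLS4326 against PBS (SE 0.23, adjusted p = 0.705). Neither passed for treatment, and whether the 2 differed from each other was not tested. Of 5 injured tubule markers, all rose in PBS-treated mice, among them Vcam1 by 3.23 (adjusted p = 2.37e-08) and Krt20 by 5.14 (adjusted p = 5.69e-08), and remained above wild type with RGLS4326, and 0 passed between the treatments by edgeR or DESeq2, with 1 at an unadjusted p under 0.05 by edgeR.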

How the data were processed

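Kidney mRNA of 31 mice was read from a stranded mRNA kit as 75-base paired ends. The authors trimmed reads with Trim Galore, mapped them with STAR on GRCm38 and deposited raw counts of uniquely mapped reads per gene from HTSeq 0.6.1, without normalization. The annotation and strand setting are not given in the sources used here. The 5 summary lines of each file, 26.91% to 31.12% of its total, were left out. Genes passing filterByExpr (15185) were scaled by TMM and tested with edgeR 4.0.16 (R 4.3.3), quasi-likelihood, 1 coefficient per group over all 31 mice, with Benjamini-Hochberg adjustment over all genes tested. The SE is the absolute log2 fold change over the square root of F. The procedure was tested on simulated counts. Correlations used scipy 1.17.1 and a pseudocount of 1.

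Groups come from the sample labels. Depth was 14892524 to 27459962 counts on genes. Positions, exon lengths and 3′UTRs are from GENCODE vM21 on GRCm38, and microRNA and promoter sequences from RefSeq. The 8 members and the 17 gene lists were chosen with earlier results of these data known. Named genes are the members, 3 genes of each list with the smallest p in PBS against wild type, Lcn2, Havcr1 and, for each member, the 3 most similar genes, of which 1 gene is not reported here. Further genes were named after their values were seen: Arhgap4, Cubn, Gnas, Slc12a1, Slc14a2, Elf5, Tfcp2l1, Mip, Aqp12 and Aqp6. Alternatives covered scaling, filter, test (DESeq2 1.42.0), mice fitted, index series, replicate block and leaving out each mouse. 2 alternatives, leaving out wild-type mice 3 and 4 and adding index series without mouse 9, were chosen after seeing the data.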

Additional observations from a re-analysis of the deposited data

How the results depend on the processing

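PBS against wild type called 7 of 8 genes, and 6 without wild-type mouse 1 (range over mice left out 6 to 7), where 71.4% of all genes were called. In index series 1 alone it called 6, where Aqp1 was lost and 51.9% of all genes were called. In series 2 alone it called 5, where Aqp1 and Aqp4 were lost and 45.5% were called. RGLS4326 against wild type called 6 whichever mouse was left out, where 60.4% to 67.5% of all genes were called. It called 3 in index series 2 alone, where 2.58% of all genes were called. RGLS4326 against PBS called 4, with a range of 2 to 5 when 1 mouse was left out. It called 2 without PBS mouse 9 or 10 (Aqp2 and Aqp11 lost), where 5.55% and 4.08% of all genes were called. It called 3 without PBS mouse 2, 3 or 5 (Aqp11 lost), where 7.47%, 6.07% and 5.21% of all genes were called. It called 5 without RGLS4326 mouse 2 (Avpr1a gained), where 26.4% of all genes were called. It called 0, 0 and 0 in index series 1, 2 and 3 alone by edgeR, as it did over all genes there, while 0, 4 and 6 had an unadjusted p under 0.05 (DESeq2 was run on all mice only and called 4), and 1 with a fold threshold of 0.5.

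Replicate numbers are shared between groups but belong to different animals, and over 12 PBS and RGLS4326 pairs with a common number the deviations gave a mean r of -0.085 (-0.47 to 0.506). With the replicate number as a block, RGLS4326 against PBS called 1 of the 8, Aqp3 (adjusted p = 0.0468), and 303 genes in all (2%) instead of 2402. The log2 fold changes moved little, to -0.38 for Avpr2 (adjusted p = 0.0588), -0.52 for Aqp2 (adjusted p = 0.0743) and 0.40 for Aqp11 (adjusted p = 0.096); the other comparisons kept their counts of 7 and 6.

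Direction changed only in differences that missed the threshold with all mice fitted. Aqp7 in PBS against wild type gave -0.04 in index series 1, -0.01 with the replicate block, -0.06 without wild-type mice 3 and 4 and -0.04 to 0.07 with 1 mouse left out. Aqp1 gave -0.02 for RGLS4326 against PBS in series 1 and 0.11 for RGLS4326 against wild type in series 2, Aqp4 gave 0.33 for RGLS4326 against PBS in series 2, and Aqp7 gave -0.01 for RGLS4326 against wild type in series 1. Upper quartile scaling moved the median log2 fold change of all genes in PBS against wild type to 0.131. Under it Aqp1 gave -0.16 (adjusted p = 0.119), and Aqp7 in RGLS4326 against wild type gave 0.23 (adjusted p = 0.0216). The causes were not tested.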

Other observations

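Lists of other kidney cells were read beside the members. All 5 leukocyte markers in the files rose in PBS-treated mice, with a summed level of 15 to 24.5 CPM in wild-type and 48.9 to 91.0 CPM in PBS-treated mice. They include Cd68 of macrophages (log2 fold change 2.21, adjusted p = 4.05e-08), the integrin gene Itgam (2.83, adjusted p = 1.87e-07) and Cd3e of T cells (2.14, adjusted p = 6.38e-08). Between RGLS4326 and PBS, 0 of 5 passed by edgeR or DESeq2, with 0 at an unadjusted p under 0.05 by edgeR. Of 6 smooth muscle and fibroblast markers, 5 rose and 1 fell in PBS-treated mice, 0 passed between the treatments by edgeR or DESeq2 (1 at an unadjusted p under 0.05 by edgeR), and 4 remained above wild type. The collagen gene Col1a1 rose by 3.37 (adjusted p = 8.41e-09), and the contractile genes Tagln by 2.30 (adjusted p = 2.42e-08) and Acta2 by 1.28 (adjusted p = 4.42e-07). Mouse 9 read 19.6 CPM for the summed leukocyte markers and 24.3 CPM for the injured tubule markers, inside the wild-type ranges of both lists.

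Intercalated cells share the collecting duct with principal cells, yet their 7 markers split, with 3 higher and 2 lower in PBS-treated mice, 0 called between RGLS4326 and PBS by edgeR or DESeq2 (2 at an unadjusted p under 0.05 by edgeR), and 2 higher and 2 lower in RGLS4326-treated than in wild-type mice. Foxi1, their defining transcription factor, rose by 0.86 (adjusted p = 5.45e-07), the proton pump subunit gene Atp6v1g3 by 0.46 (adjusted p = 1.38e-05), and Slc4a1, the anion exchanger, fell by 0.96 on the log2 scale (adjusted p = 9.48e-06). The summed level ran from 355 to 428 CPM in wild-type and from 343 to 512 CPM in PBS-treated mice. Of 7 loop and distal tubule markers, 1 rose and 5 fell in PBS-treated mice, 2 rose with RGLS4326, namely Pvalb (1.27, adjusted p = 0.04) and Calb1 (0.43, adjusted p = 0.0475), neither of which passed without mouse 9, and 4 stayed below wild type. Of 5 podocyte markers 2 rose in PBS-treated mice, Wt1 by 1.08 (adjusted p = 6.03e-05) and Synpo by 0.95 (adjusted p = 1.07e-05), and Podxl gave -0.22 (adjusted p = 0.106). Of 7 endothelial markers Egfl7 rose by 0.27 (adjusted p = 0.0109), and Kdr and Tek fell by 1.05 (adjusted p = 0.000226) and 0.73 (adjusted p = 0.00613). Of 6 adipocyte markers 1 rose and 1 fell in PBS-treated mice, Cfd gave 3.72 (adjusted p = 0.046) and Plin1 3.02 (adjusted p = 0.0918), and 1, Pck1, which proximal tubules also express, rose with RGLS4326 (0.56, adjusted p = 0.0421) but did not pass without mouse 9. Of 9 red cell markers, 2 passed the filter on low counts and both, Slc4a1 and Alas2 (-2.76, adjusted p = 3.82e-07), were lower in PBS-treated than in wild-type mice.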
